A study of Homo sapiens with 14 samples.

Results

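The expression of 32 human genes of homologous recombination and the Fanconi anaemia pathway was followed in ovarian cancer cells given an inhibitor of histone demethylases. The members were taken by name, all 32 were found among the 58825 genes of the deposited count tables, and all 32 passed the filter on low counts in each fit. RNA came from SKOV3, CAOV3 and OVCAR-3 cells, which are established lines from ovarian cancers, given 2.5 µM of GSK-J4 or of GSK-J5. GSK-J4 enters cells and blocks KDM6A (UTX) and KDM6B (JMJD3), which remove methyl groups from lysine 27 of histone H3, and GSK-J5 is an isomer used as its inactive control. The groups were OVCAR-3 with GSK-J4 and with GSK-J5 for 48 h (2 libraries each) and OVCAR-3, CAOV3 and SKOV3 with GSK-J4 and with GSK-J5 for 72 h (3 libraries each), 22 libraries in all. No library of untreated cells is in the labels, so the effects below compare 2 compounds, and each line had its own growth medium. In every line replicates 1 and 2 formed a first library set, whose treatment text names stripped medium, and replicate 3 a second set with another RNA kit, serum and poly(A) selection, with both compounds in each set.

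Homologous recombination repairs a broken chromosome by copying the intact sister. MRE11, RAD50 and NBN bind the broken end, RBBP8 (CtIP), EXO1 and the helicase BLM help cut it back to single-stranded DNA, and BRCA1, PALB2 and BRCA2, with XRCC2, XRCC3 and their relatives, then prepare that strand for pairing with the sister. The Fanconi core complex senses strands tied together by a crosslink and attaches ubiquitin, through its ligase FANCL, to the FANCD2-FANCI pair, which opens the way for repair by recombination. Inherited loss of BRCA1 or BRCA2 is a well-known cause of ovarian cancer and makes tumours sensitive to platinum and to PARP inhibitors.

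Total counts per library ran from 24037007 to 37990707, and members had between 8 counts (RAD54B) and 4087 counts (NBN) in a library. Levels are given as CPM, that is counts relative to library size, scaled by TMM within each line. The epithelial and Mullerian markers summed to between 4830 and 9990 CPM in OVCAR-3, between 5360 and 6050 CPM in CAOV3 and between 868 and 1930 CPM in SKOV3, and the leukocyte, fibroblast and endothelial markers to at most 55, 167 and 690 CPM in the same lines. In SKOV3 the adhesion genes EPCAM and CDH1 had at most 20.2 and 9.90 CPM and MUC16 at most 0.369 CPM, while KRT8 had 523 to 757 CPM and PAX8, a Mullerian factor, 155 to 210 CPM. Replicate 3 of OVCAR-3 at 72 h stood apart: over all genes above 1 CPM, the share at least 2-fold lower with GSK-J4 came to 2.94% there, against 23.5% in replicate 1 and 24.5% in replicate 2. Results that rest on it are given with and without it. In bulk RNA a lower level per cell and fewer cells with the transcript cannot be told apart.

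In OVCAR-3 after 48 h, 13 of the 32 genes fell with GSK-J4 and 2 rose; a gene is called where the edgeR quasi-likelihood test gave an adjusted p under 0.05 over the 17402 genes tested. The genes that fell came from every step of the pathway except the FANCD2-FANCI pair, and the steepest falls were those of XRCC2, FANCL, BRIP1 and BRCA1. The 2 that rose were FANCE and RBBP8. Of all genes tested, 7.63% were called lower and 11.3% higher, against 40.6% and 6.25% of the members, and the median log2 change was -1.01 over the members and -0.03 over all genes.

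XRCC2, a protein of strand exchange, had 3.13 and 2.36 CPM in the GSK-J4 libraries, against 20.6 and 20.7 CPM in the GSK-J5 libraries. It was 7.51-fold lower (log2 -2.91, SE 0.61, 95% interval -4.31 to -1.51, adjusted p = 0.0254). FANCL, the ubiquitin ligase of the core complex, had 2.86 and 2.72 CPM with GSK-J4 and 14.4 and 13.9 CPM with GSK-J5, a fall of 5.06-fold (log2 -2.34, SE 0.65, adjusted p = 0.0434). Both genes were lower in each GSK-J4 library than in each GSK-J5 library, with libraries of a compound close together. BRIP1 (FANCJ), the helicase that binds BRCA1, had 6.09 and 7.12 CPM with GSK-J4, against 25.2 and 26.3 CPM with GSK-J5 (log2 -1.96, SE 0.49, adjusted p = 0.0355). BRCA1 itself had 7.26 and 9.73 CPM with GSK-J4, against 28.0 and 28.6 CPM with GSK-J5 (log2 -1.74, SE 0.47, adjusted p = 0.0409). For both, the groups did not overlap.

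The genes that rose showed the same separation in the other direction. At 48 h both GSK-J4 libraries lay below both GSK-J5 libraries in 22 members and above them in 8, and 2 members overlapped. So this separation does not mark out the called genes, and it was not set against all genes. FANCE, the core-complex subunit that contacts FANCD2, had 37.8 and 38.7 CPM with GSK-J4, against 13.6 and 16.2 CPM with GSK-J5, a rise of 2.57-fold (log2 1.36, SE 0.29, adjusted p = 0.0257). RBBP8, the CtIP protein that starts resection with MRE11, had 108 and 125 CPM with GSK-J4, against 48.6 and 50.3 CPM with GSK-J5, a rise of 2.36-fold (log2 1.24, SE 0.36, adjusted p = 0.0472). Within the Fanconi core complex FANCE rose while FANCL, FANCF and FANCB fell.

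The promoters below show the upstream DNA of the 3 genes that fell most, of BRCA2, the one member called in the same direction in at least 2 of the 4 comparisons of GSK-J4 with GSK-J5, and of FANCE, which rose most. BRCA2 was chosen by that rule, and the other 4 were chosen after their values were seen. Sequences are from RefSeq (GRCh38.p14), up to 250 bases before the annotated start and outside the GENCODE gene, 5′ to 3′ on the gene's strand; capitals mark the letters TTTGAA or CCAAT on either strand. The windows are chr7:152676166-152676391 (minus strand), chr2:58241373-58241575 (minus strand), chr17:61863529-61863778 (minus strand), chr13:32315258-32315473 (plus strand) and chr6:35452088-35452337 (plus strand).
XRCC2: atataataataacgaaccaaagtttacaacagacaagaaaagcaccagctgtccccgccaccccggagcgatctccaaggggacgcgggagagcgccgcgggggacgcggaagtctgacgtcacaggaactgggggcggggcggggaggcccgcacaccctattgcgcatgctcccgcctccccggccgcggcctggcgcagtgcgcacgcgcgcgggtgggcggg
FANCL: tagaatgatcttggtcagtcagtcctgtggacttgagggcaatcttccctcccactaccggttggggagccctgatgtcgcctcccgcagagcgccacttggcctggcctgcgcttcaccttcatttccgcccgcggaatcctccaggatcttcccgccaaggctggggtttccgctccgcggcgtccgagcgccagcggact
BRIP1: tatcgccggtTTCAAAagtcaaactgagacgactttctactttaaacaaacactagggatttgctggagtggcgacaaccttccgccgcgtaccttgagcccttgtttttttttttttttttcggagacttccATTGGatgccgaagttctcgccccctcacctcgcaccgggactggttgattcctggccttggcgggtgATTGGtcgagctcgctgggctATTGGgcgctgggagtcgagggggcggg
BRCA2: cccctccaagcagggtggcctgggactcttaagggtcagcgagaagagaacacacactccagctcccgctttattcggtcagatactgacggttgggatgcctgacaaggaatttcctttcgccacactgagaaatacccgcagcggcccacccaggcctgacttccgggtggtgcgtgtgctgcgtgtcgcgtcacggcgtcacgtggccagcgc
FANCE: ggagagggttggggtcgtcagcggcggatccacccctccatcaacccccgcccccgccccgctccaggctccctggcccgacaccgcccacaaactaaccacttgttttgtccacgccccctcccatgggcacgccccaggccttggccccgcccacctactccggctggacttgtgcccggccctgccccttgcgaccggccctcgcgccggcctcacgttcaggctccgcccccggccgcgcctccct
Of the 5, BRIP1 alone carried any of the words searched: 3 CCAAT words and 1 TTTGAA word, all on the opposite strand and so printed as ATTGG and TTCAAA. The E2F words searched were TTTCCCGC, TTTGGCGC, TTTCGCGC and TTTGCCGC, on both strands. RefSeq windows of 250 bases were found for 29 of the members (not NBN, RAD54B and FANCI). CCAAT was in 12 of the 29 (41.4%), against 37.0% of 27305 genes, TTTGAA in 3 (10.3%), against 16.1%, and an E2F word in 2 (6.9%), against 3.4%. Among the 13 members called lower at 48 h CCAAT was in 7, TTTGAA in 2 and an E2F word in 0. Among the other 16, CCAAT was in 5, TTTGAA in 1 and an E2F word in 2. No word in a window says only that these letters are not there.

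By role, the MRE11-RAD50-NBN complex had 1 of 3 genes lower at 48 h. MRE11, its nuclease, had 12.7 and 11.1 CPM with GSK-J4, against 24.1 and 25 CPM with GSK-J5 (log2 -1.04), whereas NBN, the sensor subunit, had 68.8 and 75.6 CPM against 70.2 and 74.7 CPM (log2 -0.01, not called). RAD50 gave log2 0.47 and was not called; 79.7% of its annotated exon bases are shared with another gene on the same strand, so its count is uncertain. Of the 4 resection genes and helicases, 3 fell and 1 rose: beside BRIP1 and RBBP8, the exonuclease EXO1 (log2 -1.39, adjusted p = 0.0413) and the Bloom helicase BLM (log2 -1.44, adjusted p = 0.0307).

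Of the BRCA group, BRCA1 and BRCA2 fell, and BARD1 and PALB2 were not called. BRCA2, which acts on the resected strand, had 3.65 and 5.15 CPM with GSK-J4, against 13.1 and 14.3 CPM with GSK-J5 (log2 -1.64, SE 0.34, adjusted p = 0.0257). PALB2, which links BRCA1 to BRCA2, gave log2 0.22. BARD1, the partner of BRCA1 in its ubiquitin ligase, gave log2 -1.25 without passing the test. In the group of XRCC2 and its 4 relatives, XRCC2 was the member called; RAD51B, RAD51C and XRCC3 had estimates between 0.28 and 0.47 and RAD51D one of -0.60. XRCC3 shares 76.7% of its exon bases with KLC1 on the opposite strand, and the strand setting of the counts is not given.

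Among the remaining groups, RAD54L, a motor protein that drives strand exchange, fell (log2 -0.998, adjusted p = 0.0305), and RAD52 and RAD54B were not called (log2 0.50 and -0.72). RAD54B shares 59.1% of its exon bases with FSBP on the same strand. On the opposite strand, RAD54L shares 25.1% with LRRC41, FANCA 23.6% with ZNF276, FANCL 18.7% with VRK2, ATR 16.4% with another gene and FANCF 11.3% with GAS2, so these counts are uncertain too. The Fanconi core complex had 3 of 8 genes lower and 1 higher. FANCF, the small adaptor of the core, had 8.12 and 7.30 CPM with GSK-J4, against 25.7 and 24.7 CPM with GSK-J5 (log2 -1.71, adjusted p = 0.0344). FANCB had 1.24 and 1.04 CPM, against 2.89 and 3.24 CPM (log2 -1.43, adjusted p = 0.047). FANCA, FANCC, FANCG and FANCM were not called, with FANCG at log2 0.13 and FANCA at -1.11. FANCD2 and FANCI, the ubiquitin targets, gave -1.31 and -1.08 and were not called. Of the checkpoint kinases, ATM (log2 -1.11, adjusted p = 0.0495) and ATR (log2 -1.03, adjusted p = 0.0485) fell, and CHEK1, the kinase that ATR switches on, gave -0.52.

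The 48 h calls borrow their spread from 72 h, since 48 h had 2 libraries per compound. With any 1 of the 4 libraries of 48 h left out, no member and 0% of all genes were called. Without the set term 1 member was lower and 0 higher (1.13% and 3.53% of all genes). A replicate block called no member and 0% of all genes. Fits that called 0% of all genes are no result about the members in particular. In a fit of the 4 libraries of 48 h alone 20 were lower and 5 higher, with 31.2% and 30.7% of all genes. Without replicate 1 or 2 of GSK-J5 at 72 h, 4 and 5 were lower (2.56% and 2.90% of all genes) and 1 higher in each. Without replicate 2 of GSK-J4 at 72 h 8 were lower (7.86% of all genes). Without the GSK-J4 library of replicate 3 at 72 h 20 were lower and 5 higher (29.5% and 28.8%), the same member counts as without its GSK-J5 library. These 2 fits are not separate results, since the set term takes up the single second-set library that is left. Both amount to the first set alone, which also gave 20 lower and 5 higher.

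S phase and mitosis markers moved with these genes. Of 20 such markers 16 fell at 48 h (median log2 -1.28), their summed level was 1270 and 1230 CPM in the GSK-J4 libraries, against 2650 and 2680 CPM in the GSK-J5 libraries, and MKI67 and MCM6 gave log2 -2.11 and -2.09. Of 8 epithelial and Mullerian markers 4 fell, with a summed level of 4910 and 4830 CPM with GSK-J4, against 9550 and 9530 CPM with GSK-J5. Of 9 leukocyte, fibroblast and endothelial markers 5 could be tested and none was called; they summed to 13.2 and 14 CPM with GSK-J4, against 43.7 and 44.4 CPM with GSK-J5, with 2 and 3 genes at 0 counts in the GSK-J4 libraries and 1 and 2 in the GSK-J5 libraries. Over all OVCAR-3 libraries CD3E, DCN and PECAM1 stayed at or below 0.133 CPM, while CDH5 and PTPRC reached 0.676 and 1.03 CPM. VWF, CD14 and COL1A2 reached 3.65, 4.13 and 4.49 CPM, and COL1A1 had between 7.33 and 47.1 CPM. The part of these markers in the members' falls was not tested.

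**Figure D1:**
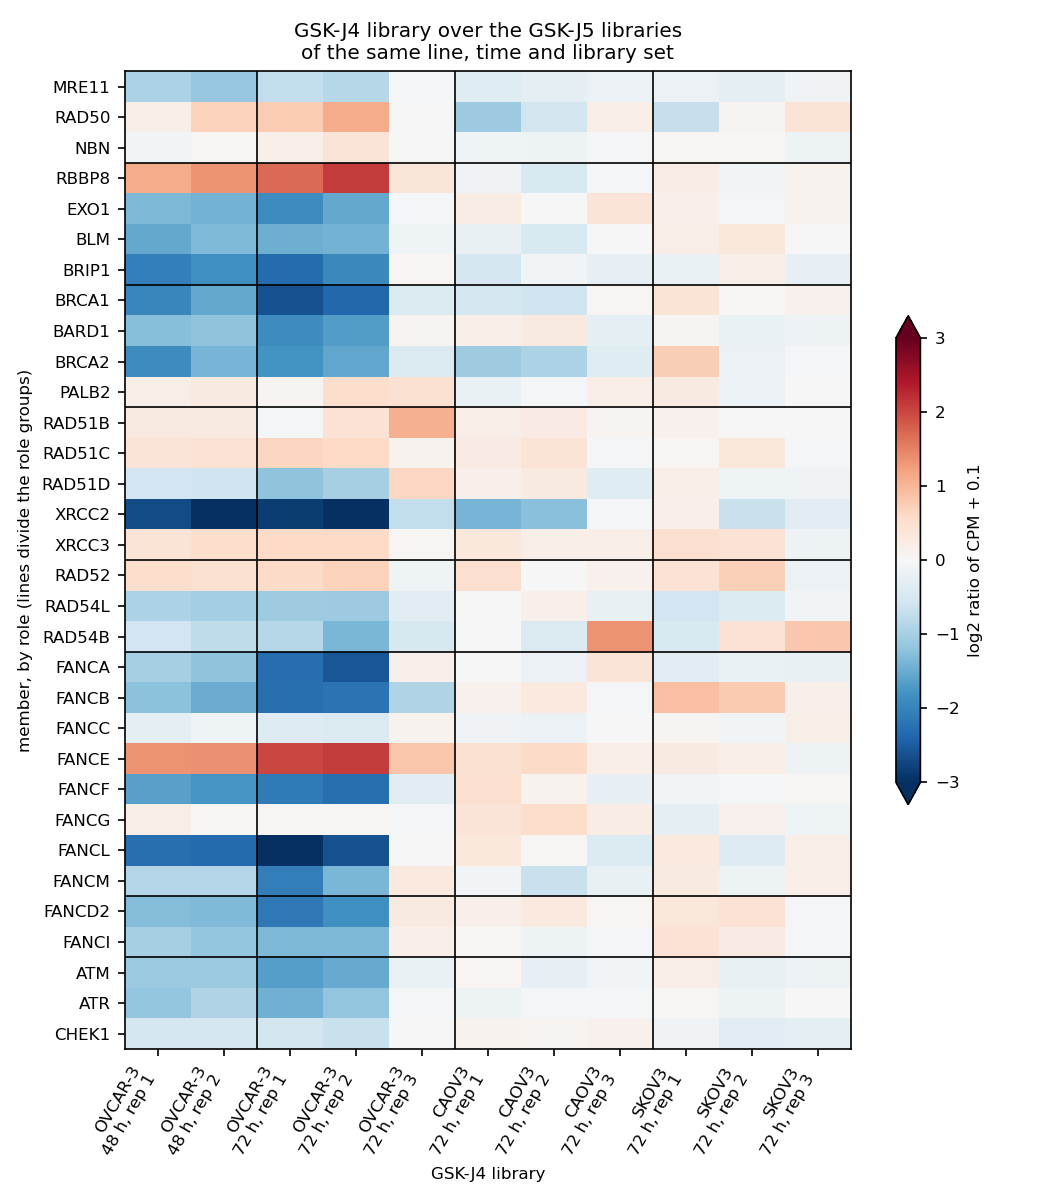
Each GSK-J4 library (columns) against the mean of the GSK-J5 libraries of the same line, time and library set, as the log2 ratio of CPM + 0.1, for the 32 members (rows, with black lines between role groups). Colours end at 3 in both directions. The OVCAR-3 columns of 48 h and of replicates 1 and 2 at 72 h have medians between -1.29 and -0.95, and the other columns have medians between -0.052 and 0.145.

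In OVCAR-3 after 72 h no member was called (edgeR quasi-likelihood test, 6 libraries), although 18 were lower and 2 higher at an unadjusted p under 0.05, as were 44.3% of all genes in either direction. limma voom also called none, with 0.0251% of all genes called. The DESeq2 Wald test called 16 lower and 2 higher, with 18.8% and 20.5% of all genes. Of all 15966 genes 0% were called lower and 0.0313% higher. The member estimates ran from -2.42 (XRCC2) to 1.63 (FANCE), with a median of -0.91 against -0.07 over all genes. The 2 library sets differed: in replicates 1 and 2 most members were far below GSK-J5, and in replicate 3 they lay near it.

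FANCE had the smallest p, with 52.2, 55.4 and 22.6 CPM in the GSK-J4 libraries of replicates 1, 2 and 3, against 12.8, 13.1 and 12.6 CPM with GSK-J5 (log2 1.63, SE 0.29, adjusted p = 0.0698). FANCB had 0.689, 0.722 and 1.76 CPM with GSK-J4, against 3.25, 4.14 and 3.38 CPM with GSK-J5 (log2 -1.90, SE 0.43, adjusted p = 0.0698). For both the compounds did not overlap, and the third GSK-J4 library was the one nearest to GSK-J5. BRCA2 had 3.55, 4.23 and 6.49 CPM with GSK-J4, against 12.7, 12.6 and 8.78 CPM with GSK-J5 (log2 -1.31, SE 0.33, adjusted p = 0.0698). XRCC2 had 2.33, 1.29 and 11.4 CPM with GSK-J4, against 19.1, 15.4 and 19.0 CPM with GSK-J5 (log2 -2.42, SE 0.62, adjusted p = 0.0698). XRCC2 kept a gap between the compounds in each pair, at 11.4 against 19.0 CPM in replicate 3.

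In 13 of the 32 members (40.6%) every GSK-J4 library of 72 h was below every GSK-J5 library, against 17.8% of all genes tested. They were EXO1, BLM, BRCA1, BRCA2, XRCC2, RAD54L, RAD54B, FANCB, FANCF, FANCL and the 3 checkpoint kinases ATM, ATR and CHEK1. In 3 members (9.38%), RBBP8, PALB2 and FANCE, every GSK-J4 library was above, against 22.2% of all genes. RBBP8 had 144, 190 and 67.8 CPM with GSK-J4, against 44.9, 44.1 and 53.0 CPM with GSK-J5. FANCL had 1.54, 2.37 and 9.25 CPM with GSK-J4, against 16.2, 13.7 and 9.39 CPM with GSK-J5, so that its replicate 3 libraries differed little.

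**Figure D2:**
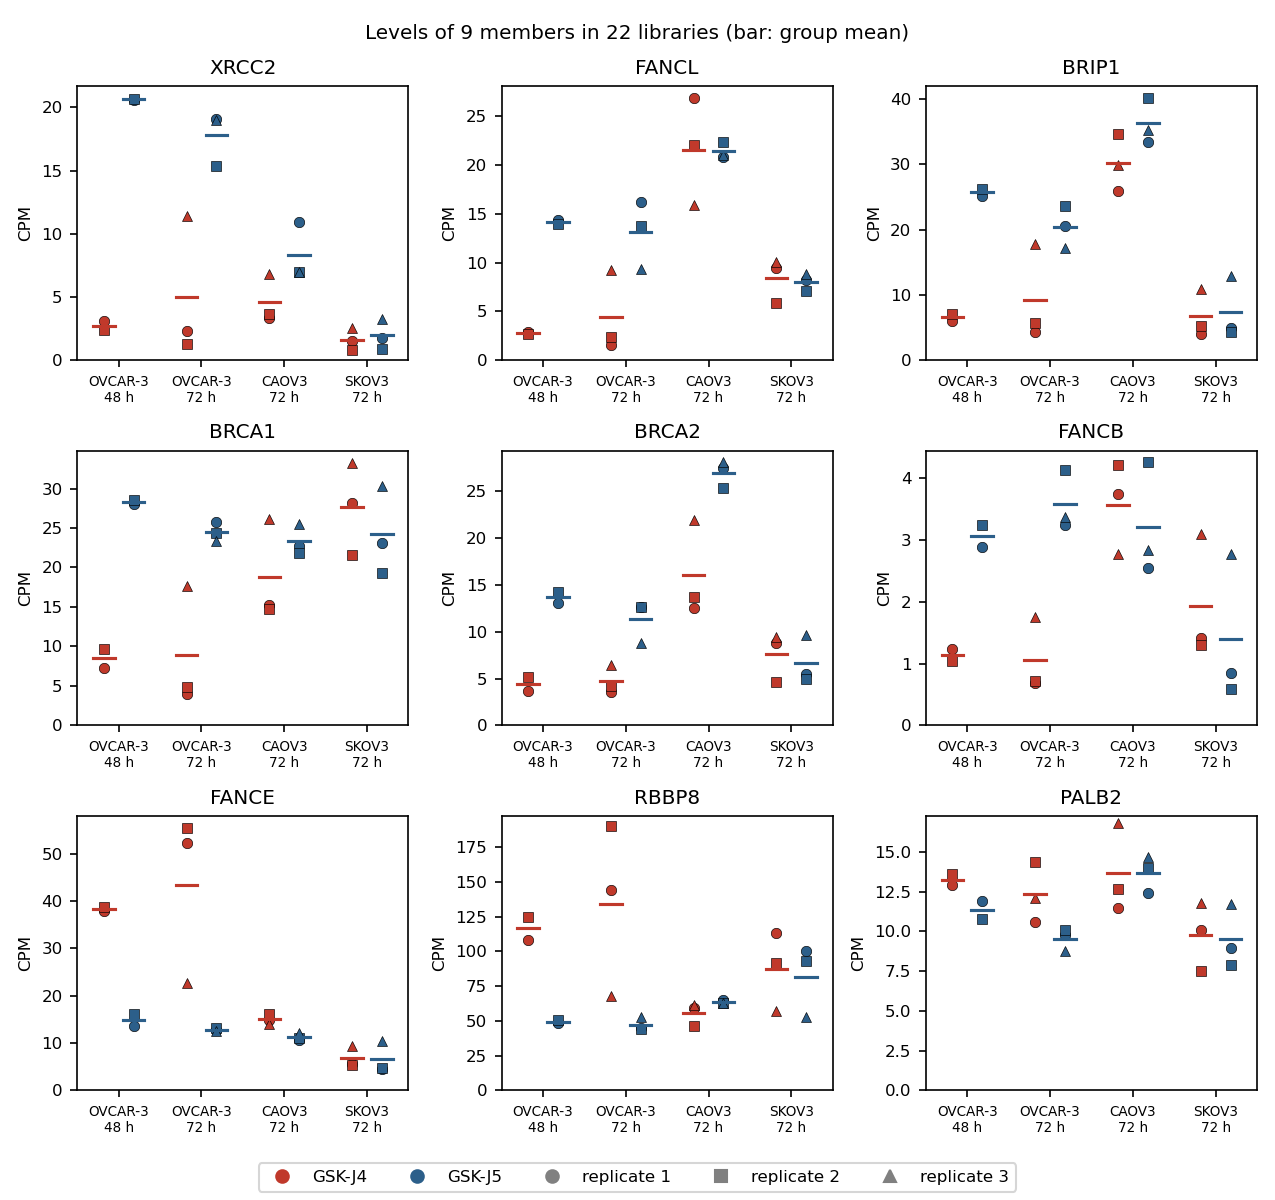
CPM of 9 members in the 22 libraries; GSK-J4 (red) stands left of GSK-J5 (blue) in each group, symbols give the replicate and bars the group mean. In OVCAR-3 at 72 h the red triangle of replicate 3 lies between the red symbols of replicates 1 and 2 and all the blue ones, except for BRIP1 and PALB2, for example at 17.7 CPM for BRCA1, against 4.03 and 4.85 CPM in replicates 1 and 2.

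With replicates 1 and 2 alone, 22 members were lower and 7 higher at 72 h (68.8% and 21.9%), against 37.1% and 34.6% of 16281 genes. XRCC2 (log2 -3.25, SE 0.26), FANCL (log2 -2.92, SE 0.23), BRCA1 (log2 -2.50, SE 0.15), FANCA (log2 -2.46, SE 0.19) and FANCB (log2 -2.38, SE 0.33) had the steepest falls, and FANCE (log2 2.06, SE 0.12) and RBBP8 (log2 1.91, SE 0.13) the largest rises. RAD50, NBN, RAD51C, XRCC3 and RAD52 were the other genes that rose. PALB2, RAD51B and FANCG were not called. BARD1, FANCA, FANCD2, FANCI, FANCM, RAD51D and CHEK1 fell at 72 h and, with replicates 1 and 2 alone, also at 48 h; FANCC and RAD54B fell at 72 h and were not called at 48 h.

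Replicate 3, with 1 library per compound, has no replicate check. In the pair of replicate 3 the member median was -0.02 on the log2 scale and 18 of 32 members were below 0, against 45.8% of all genes. In the pairs of replicates 1 and 2 the medians were -1.27 and -1.14, with 23 and 22 members below 0, against 52.7% and 52.1% of all genes. FANCD2 had 8.27, 10.2 and 30.1 CPM with GSK-J4 in replicates 1, 2 and 3, against 36.4, 37.0 and 24.8 CPM with GSK-J5, so the direction in replicate 3 was the opposite of that in the others. BRCA1 had 4.03, 4.85 and 17.7 CPM with GSK-J4, against 25.8, 24.4 and 23.4 CPM with GSK-J5, and was lower in each pair. The S phase and mitosis markers went the same way: they summed to 1320, 1380 and 1670 CPM with GSK-J4, against 2420, 2360 and 1980 CPM with GSK-J5. None of the 20 was called at 72 h (edgeR; median log2 -0.90). The epithelial and Mullerian markers summed to 6030, 6420 and 8790 CPM with GSK-J4, against 9990, 9540 and 9360 CPM with GSK-J5. The leukocyte, fibroblast and endothelial markers summed to 10.4, 7.79 and 47.0 CPM with GSK-J4, against 55.0, 46.9 and 44.8 CPM with GSK-J5. The part of these markers in the members' values was not tested.

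Between the times, no member had a different GSK-J4 effect at 72 h than at 48 h in the 10 OVCAR-3 libraries (edgeR). Of 17402 genes 0% were called lower and 0.00575% higher. No member had an unadjusted p under 0.05, against 7.35% of all genes. DESeq2 gave an adjusted p for 29 of the members and called 0, against 0.914% of all genes lower and 0.488% higher. The members with the smallest p were MRE11 (difference of log2 changes 0.49, 95% interval -0.13 to 1.12), BLM (0.43, -0.55 to 1.41), NBN (0.18, -0.26 to 0.62) and BRIP1 (0.56, -0.89 to 2.01). With replicates 1 and 2 alone, 5 members (15.6%) had a lower and 2 (6.25%) a higher estimate at 72 h, against 15.2% and 11.9% of 17090 genes. The members' shares were thus near and below those of all genes. FANCA moved furthest: it had 2.65 and 2.17 CPM with GSK-J4 at 72 h and 7.02 and 6.01 CPM at 48 h, against 14 and 12.7 CPM with GSK-J5 at 72 h and 14 and 14.2 CPM at 48 h (difference -1.35, SE 0.22, adjusted p = 0.00156). FANCD2, BRCA1, BARD1 and FANCF were the others lower, and FANCE (0.70, SE 0.15) and RBBP8 (0.67, SE 0.17) the 2 higher. These 2 rose at 48 h, so in the first set their rises were larger at 72 h.

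In CAOV3 after 72 h, BRCA2 was the single member called, and it fell. It had 12.5, 13.7 and 22 CPM with GSK-J4, against 27.5, 25.4 and 28.1 CPM with GSK-J5, a fall of 1.73-fold (log2 -0.79, SE 0.16, 95% interval -1.12 to -0.46, adjusted p = 0.0444). No member was called higher. Of 16351 genes 0.251% were called lower and 0.0673% higher, and the member median was -0.01. The call was lost when any library of replicates 1 or 2 was left out, without the set term, with a replicate block and in a fit of all 18 libraries of 72 h. In each of these fits at most 0.00597% of all genes were called in either direction.

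The next members by p in CAOV3 were not called. XRCC2 had 3.35, 3.70 and 6.86 CPM with GSK-J4, against 10.9, 6.98 and 6.99 CPM with GSK-J5 (log2 -0.90, SE 0.28, adjusted p = 0.122). FANCG, a scaffold subunit of the core, had 50.1, 54.5 and 45.9 CPM with GSK-J4, against 40.5, 35.5 and 39.1 CPM with GSK-J5 (log2 0.38, SE 0.11, adjusted p = 0.101). FANCE had 14.9, 16.1 and 14 CPM with GSK-J4, against 10.6, 11.1 and 12.1 CPM with GSK-J5 (log2 0.42, SE 0.17, adjusted p = 0.212). In these 3 the compounds did not overlap. In all, 5 members (15.6%) lay below with every GSK-J4 library (MRE11, NBN, RBBP8, BRCA2 and XRCC2), against 6.82% of all genes, and 3 (9.38%) lay above (XRCC3, FANCE and FANCG), against 6.32%.

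With replicates 1 and 2 alone, BRCA2 (log2 -1.01, SE 0.17), XRCC2 (log2 -1.34, SE 0.31) and BRCA1 (log2 -0.57, SE 0.17) were lower in CAOV3 and FANCG higher (log2 0.46, SE 0.12), against 7.38% lower and 6.70% higher of 16554 genes. The S phase and mitosis markers did not separate the compounds in CAOV3: they summed to 3550, 3580 and 3450 CPM with GSK-J4, against 3560, 3510 and 3450 CPM with GSK-J5, and none was called (median log2 0.11).

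In SKOV3 no member was called (edgeR), where 0.0186% of 16089 genes were called lower and 0.0249% higher. No member had an unadjusted p under 0.05, against 3.56% of all genes. Neither limma voom (0.087% of all genes) nor DESeq2 (0.124%) called a member, and DESeq2 gave an adjusted p for 4 of them. The estimates lay between -0.36 (RAD54L) and 0.65 (FANCB), with a median of 0.06. Across both library sets the compounds overlapped in every member, against 1.58% of all genes below and 1.60% above. A replicate block, which compares within sets, also called none, against 0.149% of all genes. CHEK1 had 16.0, 13.5 and 29 CPM with GSK-J4, against 19.0, 15.3 and 34.8 CPM with GSK-J5 (log2 -0.24, 95% interval -0.50 to 0.03). BRCA1 had 28.2, 21.6 and 33.3 CPM with GSK-J4, against 23.1, 19.3 and 30.3 CPM with GSK-J5 (log2 0.20, -0.06 to 0.46). In both the second set was higher than the first for each compound, and within the pairs CHEK1 was lower and BRCA1 higher with GSK-J4 in 3 of 3. FANCD2 gave log2 0.24 (-0.05 to 0.53), with 15.3, 16.4 and 24.4 CPM with GSK-J4 and 13.6, 10.8 and 25 CPM with GSK-J5, and FANCB 0.65 (-0.18 to 1.49) at levels of 1.42, 1.30 and 3.10 CPM with GSK-J4 and 0.840, 0.582 and 2.78 CPM with GSK-J5. The S phase and mitosis markers summed to 1360, 1240 and 1370 CPM with GSK-J4, against 1230, 1080 and 1510 CPM with GSK-J5.

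The difference between the lines was tested directly at 72 h in 1 fit of 18 libraries, which asks whether the GSK-J4 effect in OVCAR-3 differs from that in CAOV3 and in SKOV3. Against CAOV3, 7 members had a lower and 2 a higher effect in OVCAR-3, and 7.74% and 13.2% of 19274 genes were so called. Against SKOV3, 10 members had a lower and 2 a higher effect, against 9.08% and 13.5% of all genes. The 2 tests share the OVCAR-3 libraries. With a replicate block nearly all of these calls were lost: 0 members lower and 1 higher against CAOV3 (0.872% and 5.44% of all genes) and 1 and 1 against SKOV3 (0.866% and 4.73%). Between CAOV3 and SKOV3 no member differed (edgeR), with 0% of all genes called in either direction. At an unadjusted p under 0.05, 1 member was lower and 1 higher, against 5.34% of all genes in either direction. DESeq2 called 0 members and 0.0363% of all genes.

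FANCB had the lowest differences, at -2.02 against CAOV3 (SE 0.55, adjusted p = 0.0227) and -2.55 against SKOV3 (SE 0.57, adjusted p = 0.0103). FANCL gave -1.92 against CAOV3 (SE 0.64, adjusted p = 0.0474) and -2.004 against SKOV3 (SE 0.65, adjusted p = 0.04). Its levels in CAOV3 were 26.8, 22 and 15.9 CPM with GSK-J4, against 20.8, 22.3 and 21.0 CPM with GSK-J5, with no separation of the compounds. FANCF gave -1.72 against CAOV3 (SE 0.44, adjusted p = 0.0175) and -1.58 against SKOV3 (SE 0.44, adjusted p = 0.023). FANCD2 gave -1.44 against CAOV3 (SE 0.48, adjusted p = 0.0486) and -1.52 against SKOV3 (SE 0.49, adjusted p = 0.0398). Of the Fanconi core, 3 of 8 genes were thus lower in each comparison, and FANCI was called against SKOV3 but not against CAOV3.

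Of the recombination genes, BRCA1 gave -1.43 against CAOV3 (SE 0.47, adjusted p = 0.0439) and -2.01 against SKOV3 (SE 0.47, adjusted p = 0.012), and EXO1 and ATM were called lower in both. XRCC2 was called against SKOV3 (difference -2.14, SE 0.73, adjusted p = 0.049) and not against CAOV3 (difference -1.49, 95% interval -3.01 to 0.02). BRCA2 was likewise called against SKOV3 (difference -1.52, SE 0.42, adjusted p = 0.0217) and not against CAOV3 (difference -0.50, 95% interval -1.37 to 0.38), and BRCA2 was the gene that fell in CAOV3. RBBP8 gave 1.57 against CAOV3 (SE 0.32, adjusted p = 0.00723) and 1.27 against SKOV3 (SE 0.32, adjusted p = 0.0156). FANCE gave 1.22 against CAOV3 (SE 0.28, adjusted p = 0.0115) and 1.52 against SKOV3 (SE 0.29, adjusted p = 0.00562). Beyond these and the Fanconi genes above, no member was called in either comparison. The uncalled genes included BARD1, BRIP1, BLM, RAD54L, MRE11, FANCA, FANCM, ATR, CHEK1, PALB2, NBN, RAD51B, RAD51C, RAD51D and XRCC3.

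**Figure D3:**
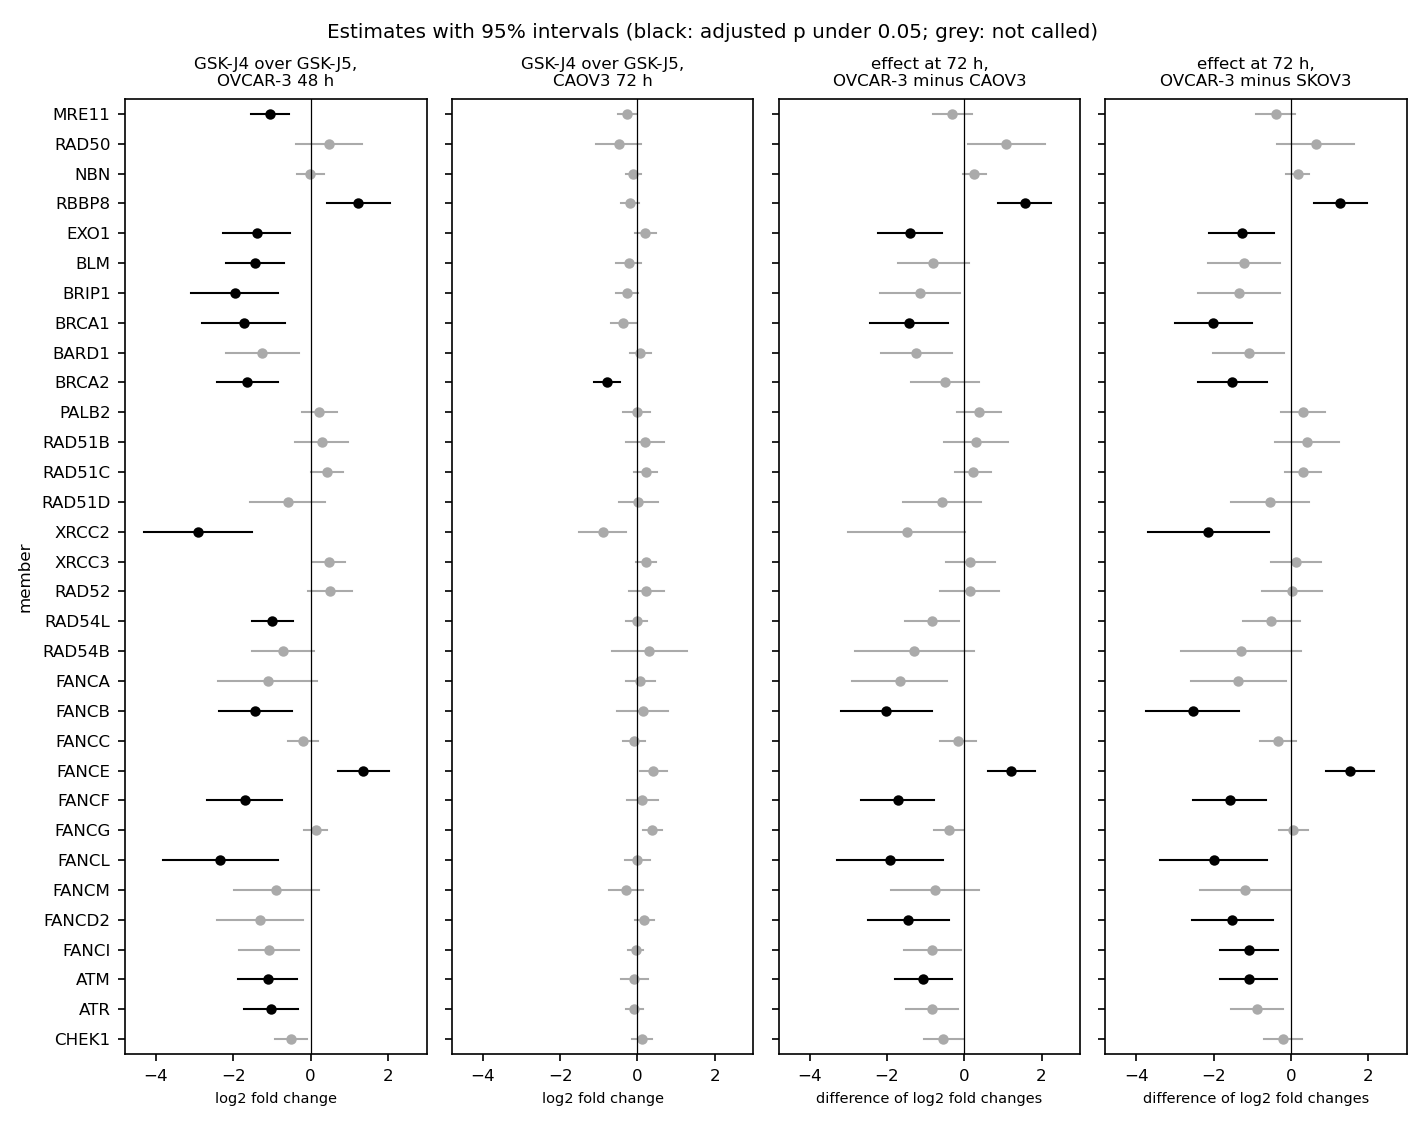
Estimates (points) with 95% intervals (lines) for the 32 members: the GSK-J4 effect in OVCAR-3 at 48 h and in CAOV3 at 72 h as log2 fold change, and the differences of the 72 h effect between lines. Black marks an adjusted p under 0.05; FANCE and RBBP8 lie right of 0 in black in the first panel and in both panels of differences.

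No member differed between the lines when replicate 1 or replicate 2 was left out. Almost no gene did so in these fits. For OVCAR-3 it was 0% of all genes without replicate 1, and without replicate 2 it was 0.0052% against CAOV3 and 0% against SKOV3. With replicates 1 and 2 alone, 20 members were lower and 3 higher in OVCAR-3 against CAOV3 (21.5% and 20.0% of 19804 genes), and 18 were lower and 2 higher against SKOV3 (21.9% and 20.2%). Of the S phase and mitosis markers, 12 of 20 had a lower effect in OVCAR-3 than in CAOV3 and 13 of 20 than in SKOV3, with AURKB at -1.87 and -1.88; their part in the members' differences was not tested.

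The levels under GSK-J5 also differed between the lines. In the GSK-J5 libraries of 72 h, 18 members were higher in OVCAR-3 than in SKOV3 and 4 lower, and 18 were higher in CAOV3 than in SKOV3 and 1, ATM, lower. Such calls were common over all genes, at 30.5% higher and 28.9% lower for OVCAR-3 over SKOV3 and 31.7% and 30.2% for CAOV3 over SKOV3. Between OVCAR-3 and CAOV3, 4 members were higher in OVCAR-3 and 6 lower, against 27.9% and 28.9% of 17966 genes. Line and medium cannot be told apart in these levels, and the S phase and mitosis markers moved with them, at 15 of 20 higher in OVCAR-3 than in SKOV3, 18 of 20 higher in CAOV3 than in SKOV3, and 11 lower and 2 higher in OVCAR-3 than in CAOV3; their part was not tested.

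XRCC2 had the largest fold difference between lines among the members named here. On a scale over these 9 libraries it had 20.8, 16.9 and 19.8 CPM in OVCAR-3, 11.1, 7.04 and 7.33 CPM in CAOV3 and 1.80, 0.945 and 3.37 CPM in SKOV3. It was 9.85-fold higher in OVCAR-3 than in SKOV3 (log2 3.30, SE 0.40, adjusted p = 7.01e-05) and 4.41-fold higher in CAOV3 than in SKOV3 (log2 2.14, SE 0.39, adjusted p = 0.000964). The order of the lines, OVCAR-3 over CAOV3 over SKOV3, held for every library of XRCC2. RAD54L had 18.9, 16.3 and 13.4 CPM in OVCAR-3, 28.9, 25.4 and 33.4 CPM in CAOV3 and 4.44, 2.42 and 5.96 CPM in SKOV3. FANCI had 43.3, 44.7 and 34.2 CPM in OVCAR-3, 137, 144 and 149 CPM in CAOV3 and 20.5, 15.4 and 35.9 CPM in SKOV3. For both CAOV3 was the highest line, with FANCI 3.47-fold lower in OVCAR-3 than in CAOV3 (log2 -1.79, SE 0.25, adjusted p = 0.000192) and RAD54L 6.95-fold higher in CAOV3 than in SKOV3 (log2 2.80, SE 0.30, adjusted p = 2.84e-05).

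ATM ran the other way, with 24.2, 24.7 and 22.9 CPM in OVCAR-3, 14.1, 14.6 and 15.9 CPM in CAOV3 and 38.8, 40.4 and 39.9 CPM in SKOV3. It was 1.66-fold lower in OVCAR-3 than in SKOV3 (log2 -0.73, SE 0.13, adjusted p = 0.000774) and 2.67-fold lower in CAOV3 than in SKOV3 (log2 -1.42, SE 0.13, adjusted p = 1.03e-05). ATR was highest in OVCAR-3, at 89.4, 95.5 and 86.3 CPM, against 45.0, 47.0 and 52.6 CPM in CAOV3 and 26.0, 35.4 and 32.7 CPM in SKOV3. BRIP1 was 5.20-fold higher in CAOV3 than in SKOV3 (log2 2.38), XRCC3 3.85-fold (log2 1.94) and FANCM 3.65-fold (log2 1.87) higher in OVCAR-3 than in SKOV3. RAD51D (log2 -1.01), RBBP8 (log2 -0.70) and NBN (log2 -0.50) were lower in OVCAR-3 than in SKOV3, although RBBP8 had 103, 95.6 and 53.9 CPM in SKOV3, so that its replicate 3 there lay within the OVCAR-3 range of 48.3 to 55.3 CPM. FANCF (log2 1.21), with 26.3, 26.5 and 25.8 CPM in OVCAR-3 and 11.0, 9.46 and 13.5 CPM in CAOV3, was higher in OVCAR-3, and BRCA2 (log2 -1.16) and BARD1 (log2 -0.96) were lower there than in CAOV3. Leaving out replicate 1 or replicate 2 left 7 and 6 members called for OVCAR-3 over SKOV3 (21.9% and 18.8%, against 37.3% and 37.8% of all genes), 12 and 13 for CAOV3 over SKOV3 (37.5% and 40.6%, against 39.9% and 40.5%), and 5 and 6 for OVCAR-3 over CAOV3 (15.6% and 18.8%, against 34.2% in both).

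Per kilobase of transcript, levels can be compared between genes where the counts are certain. For RAD54B and RAD50 they are not, with 59.1% and 79.7% of exon bases shared with another gene on the same strand. In the GSK-J5 libraries of 72 h RBBP8 was at 17.2 ± 1.32 CPM per kb in OVCAR-3, 21.9 ± 0.558 in CAOV3 and 28.4 ± 8.96 in SKOV3 (SD, n = 3 each), and was among the 2 highest members in every line. FANCI led in CAOV3 (30.1 ± 1.28 CPM per kb) and FANCG in OVCAR-3 (19.5 ± 0.769 CPM per kb). RAD54B was the lowest member in each line, at 0.654 ± 0.106 CPM per kb in OVCAR-3, 0.602 ± 0.307 in CAOV3 and 0.275 ± 0.199 in SKOV3. BRCA1 stood at 3.64 ± 0.255, 3.29 ± 0.350 and 3.43 ± 0.783 CPM per kb in OVCAR-3, CAOV3 and SKOV3, and was not called between any lines. BRCA2 stood at 1.12 ± 0.243, 2.52 ± 0.178 and 0.629 ± 0.240 CPM per kb.

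**Figure D4:**
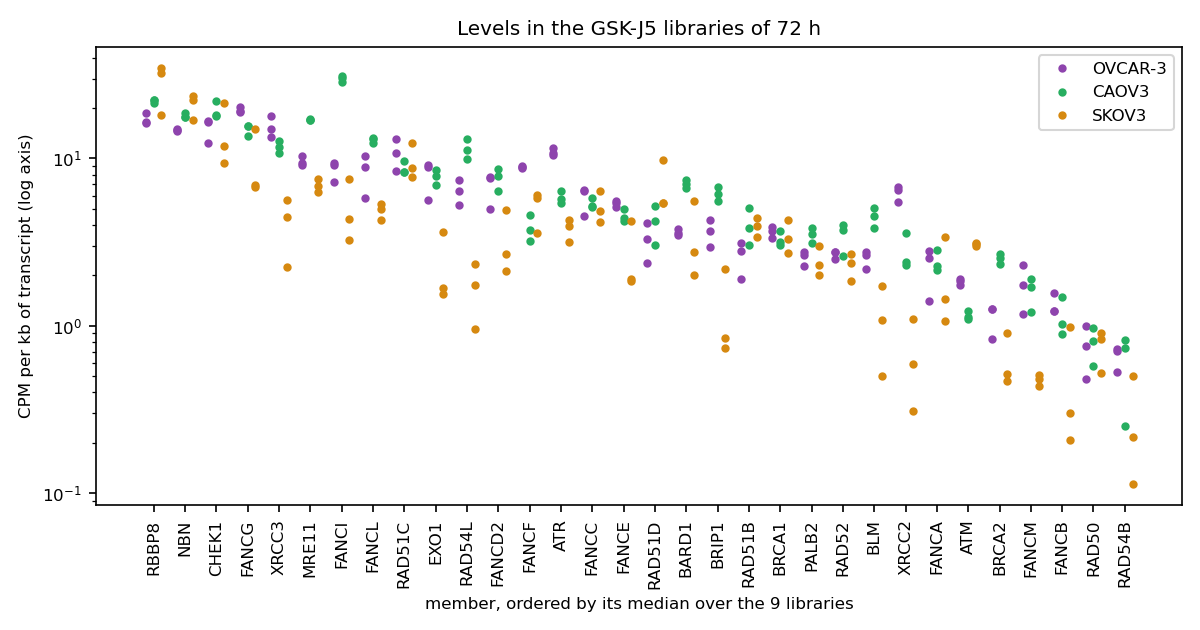
CPM per kb of transcript (log axis) in the 9 GSK-J5 libraries of 72 h, 1 point per library, with members ordered by their median. Points of SKOV3 lie lowest for XRCC2, RAD54L, BRIP1 and FANCM, whose SKOV3 libraries reach at most 2.34 CPM per kb, and highest for ATM.

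In OVCAR-3 with GSK-J5, no member differed between 72 h and 48 h (edgeR), with 0% of 17402 genes called in either direction. No member had an unadjusted p under 0.05, against 0.753% of all genes. DESeq2 called 0 members and 0% of all genes. The smallest p belonged to BLM (log2 -0.45, 95% interval -1.14 to 0.24), BARD1 (log2 -0.56, -1.42 to 0.30), ATR (log2 -0.34, -0.97 to 0.30) and BRIP1 (log2 -0.52, -1.52 to 0.47).

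Other repair genes were set beside the members at 48 h in OVCAR-3, where 7.63% of all genes were called lower and 11.3% higher. Counts near these shares are no result about a list in particular. Of 35 further homologous recombination and Fanconi genes 6 fell and 1 rose (median log2 -0.46), among them UBE2T, the ubiquitin-conjugating partner of FANCL (log2 -1.29), and UIMC1, which binds ubiquitin at breaks (log2 1.33). Of 19 checkpoint sensors and mediators tested 2 fell and 1 rose (median log2 -0.22), with CLSPN, which carries the ATR signal to CHEK1, at -2.30 and MAD2L2, a shieldin subunit, at 1.39. Of 12 end-joining genes tested PARP1 alone fell (log2 -0.75; median 0.03), of 7 mismatch repair genes 3 fell, among them MLH3 (log2 -1.41; median -0.585), and of 18 excision repair genes 3 fell and 1 rose (median 0.12), with ERCC2 at -0.995 and DDB2 at -0.94. At 72 h none of these genes was called in OVCAR-3 or SKOV3 (edgeR), where at most 0.0313% of all genes were called in either direction. RIF1, which shields ends from resection, was the single one called in CAOV3 (edgeR, log2 -0.71, SE 0.15, adjusted p = 0.0474). There 0.251% of all genes were called lower.

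Against CAOV3, the effect in OVCAR-3 was lower for 8 and higher for 3 of the 35 further recombination and Fanconi genes, led by RMI2 (difference -2.11) and SLX4 (-1.90), a partner of BLM and a scaffold for nucleases. Against SKOV3 it was lower for 7 and higher for 5, with RMI2 at -2.06 and SLX4 at -2.06. Of all genes, 7.74% were called lower and 13.2% higher against CAOV3, and 9.08% and 13.5% against SKOV3. In the end-joining list 1 gene, XRCC5, had a higher effect against CAOV3 (0.43), and 1 was lower and 2 higher against SKOV3, with POLQ, the polymerase of theta-mediated joining, at -1.21 and POLL at 1.02.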

How the data were processed

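Bulk RNA was sequenced in 22 libraries of 3 ovarian cancer cell lines. Raw counts per gene were used as deposited by the authors, in 3 tables of 58825 genes. STAR, DESeq2 and the builds GRCh38 and hg38 are named in the submitters' processing notes; how reads were counted, on which strand and with which annotation was not given in the sources used here. Names matched 58472 identifiers in a table of gene names and 345 in GENCODE 29. One column whose time differs from the labels by a digit was read as OVCAR-3 GSK-J4 at 72 h, replicate 3.

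Each comparison was fitted over all genes with edgeR 4.0.16 (R 4.3.3) by the quasi-likelihood test with TMM scaling, a minimum count of 10 in filterByExpr, a term for the library set and Benjamini-Hochberg adjustment with a threshold of 0.05. Effects in OVCAR-3 at 48 h came from the 10 OVCAR-3 libraries, effects at 72 h from the 6 libraries of the line, and differences between lines from all 18 libraries of 72 h. Standard errors were the log2 change over the root of F. limma 3.58.1 (voom) and DESeq2 1.42.0 were alternatives, as were RLE scaling, no filter, no set term, a replicate block, the first set alone, wider fits and each library left out. The fits were tested on simulated data. Depth was 24037007 to 37990707 counts, at which 3 counts are 0.079 to 0.1248 CPM, for counting error only.

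The members and lists were chosen with earlier results of these data known. Full values were given for members called with the 4 largest falls and 4 largest rises per comparison, or, with fewer than 3 called, for the 4 with the smallest p. Values per library were also given for some members outside this rule. Among them were MRE11, NBN, BRCA2, FANCF and FANCB at 48 h, and RBBP8, FANCL, FANCD2 and BRCA1 in OVCAR-3 at 72 h. The remaining values give estimates or the range of a role group. Nothing says that replicates came from separate cultures, so p-values measure the spread between these libraries, which may be technical. Deviations of same-numbered libraries from their group means correlated at 0.579, 0.59 and 0.863 in SKOV3, at -0.0678, 0.0374 and 0.00741 in OVCAR-3 at 72 h, at 0.201 in both pairs of OVCAR-3 at 48 h (-0.201 across numbers) and at 0.132, 0.0601 and 0.366 in CAOV3. In SKOV3, libraries of different number correlated at 0.483 and 0.489 within the first set and at -0.689 to -0.673 across sets. In CAOV3 these values were 0.116 and 0.161, and -0.248 to -0.138. So in SKOV3 and CAOV3 the correlations went largely with the library sets, and pairing by number within a set was not established. The OVCAR-3 libraries of 72 h showed neither pattern. In SKOV3 the replicate block gave 0 members called. With 2 pairs at 48 h and no label that ties them, the 48 h libraries were taken to share only a number.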

Additional observations from a re-analysis of the deposited data

Results flagged for a closer look

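The GSK-J4 effect at 72 h differed between OVCAR-3 and another line, by the test of the difference itself, for these members. Against CAOV3 the difference of log2 changes was -2.02 for FANCB, -1.92 for FANCL, -1.72 for FANCF, -1.44 for FANCD2, -1.43 for BRCA1, -1.39 for EXO1 and -1.06 for ATM, and it was 1.57 for RBBP8 and 1.22 for FANCE. Against SKOV3 it was -2.55 for FANCB, -2.14 for XRCC2, -2.01 for BRCA1, -2.004 for FANCL, -1.58 for FANCF, -1.52 for BRCA2, -1.52 for FANCD2, -1.28 for EXO1, -1.10 for ATM and -1.09 for FANCI, and it was 1.52 for FANCE and 1.27 for RBBP8. Both comparisons use the same OVCAR-3 libraries, whose replicate 3 lay near GSK-J5. With a replicate block 1 member differed against CAOV3 and 2 against SKOV3 (6.31% and 5.6% of all genes).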

How the results depend on the processing

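Without the set term the lower and higher counts of OVCAR-3 at 48 h were 1 and 0 (1.13% and 3.53% of all genes). With a replicate block they were 0 and 0 (0% of all genes in both directions). With the first set alone or the 4 libraries of 48 h they were 20 and 5 (of all genes 29.8% and 29.1%, and 31.2% and 30.7%). RLE scaling gave 1 higher (10.0% of all genes). At 72 h OVCAR-3 had 16 lower and 2 higher with DESeq2 (18.8% and 20.5% of all genes) and 22 and 7 with the first set (37.1% and 34.6%). It had 18 and 3 in the fit of 10 libraries (20.9% and 22.9%) and 2 higher with no filter (3.41%). CAOV3 had 0 lower without the set term, with the replicate block and in the fit of 18 libraries (0% of all genes in each). It had 2 lower with no filter (2.19%) and 3 with the first set (7.38%). With DESeq2, no filter or the first set 1 was higher (1.79%, 1.09% and 6.7% of all genes). Members whose effect differed from CAOV3 were 16 with DESeq2 and 15 with no filter (28.9% and 13.8% of all genes). There was 1 without the set term (3.12%, against 3.53% of all genes) and 1 with the replicate block (3.12%, against 6.31%). With the first set there were 23 (41.5% of all genes). From SKOV3 there were 0 without the set term (4.14% of all genes), 2 with the block (5.6%) and 20 with the first set (42.0%). Between 72 h and 48 h the first set gave 7, and the estimates of BLM (-0.0171) and BRIP1 (-0.1682) reversed there and without replicate 3, in leave-out ranges that reach 0.6417 and 0.986. Leaving out libraries gave 0 to 20 lower and 0 to 5 higher at 48 h (29.8% and 29.1%). Percentages in brackets are shares of all genes at the highest counts, without replicate 3. At 72 h it gave 0 to 22 and 0 to 7 in OVCAR-3 (37.1% and 34.6%). In CAOV3 it gave 0 to 3 and 0 to 1 (7.38% and 6.7%). Between the times it gave 0 to 7 (15.2% lower and 11.9% higher). For OVCAR-3 minus CAOV3 and minus SKOV3 it gave 0 to 23 and 0 to 20 (41.5% and 42.0%). Fits with 0 members called few or no genes of any kind. Levels under GSK-J5 gave 5 to 14 for OVCAR-3 over CAOV3, with 34.2% of all genes at the low end. They gave 6 to 25 for OVCAR-3 over SKOV3 (low end 37.8%) and 12 to 24 for CAOV3 over SKOV3 (low end 39.9%). At these high ends more of all genes were called too. Apart from the leave-outs, 75 counts kept within 1.5 times of the reported count and 33 did not; of the named log2 changes 322 kept direction and call, 41 lost and 18 gained the call and 2 reversed. Among the comparisons of GSK-J4 effects the block changed no other count; it was not run for levels under GSK-J5. The first set and second set differ in kit, medium text and selection; the cause of these changes was not tested. The lowest counts were those of RAD54B (8 to 85) and FANCB (13 to 146).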
